A study of Gallus gallus with 18 samples.

Results

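The expression of CHAC1 and other genes of the amino acid stress response was examined in the liver, abdominal fat and ovary of broiler breeder hens. The members were 9 symbols, chosen because CHAC1 stood out in the liver of the ad libitum group and the others belong to the same response. Of them, 7 could be tied to a gene identifier through the gene symbols that the study's supplementary lists give (CHAC1, ATF4, ATF3, ASNS, PHGDH, PSAT1 and SESN2), out of 17108 genes counted. TRIB3 and DDIT3 were not matched and were not analysed here. Those lists are in part ranked by the feeding contrasts and pair 5824 genes with a symbol, so the genes that could be named are not a neutral sample of the pathway. The shares over all genes given below also count genes without a symbol. Nothing is therefore read from a feeding count of named genes that exceeds such a share. The identifier listed as SESN2 carries an Entrez number that RefSeq names SESN4, and it is called SESN2 (SESN4 in RefSeq) or SESN2 here.

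RNA was sequenced from 6 Arbor Acres hens at 30 wk of age. The ad libitum group had been fed freely since 22 wk, and the restricted group had been kept on the breeder guide. All hens had been reared to guide body weight before 22 wk, and each gave liver, abdominal fat and ovary, so that 18 libraries form 3 tissues with 3 hens per group. Libraries are named as in the labels, by G for liver, F for fat and M for ovary before the number of the hen. The ad libitum hens gave G1721, G1723 and G1725 and the restricted hens G1724, G6709 and G6710, and the same numbers follow F and M. Fold changes are ad libitum over restricted and are positive where the ad libitum group had the higher level.

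Cells that run short of amino acids, or whose endoplasmic reticulum or heme supply is disturbed, phosphorylate the initiation factor eIF2alpha. General translation slows while the transcription factor ATF4 is made in greater amounts and switches on genes for amino acid synthesis, transport and tRNA charging. CHAC1 is a target of this response in mammalian cells and encodes a cytosolic enzyme that degrades glutathione. The liver makes the yolk proteins of the laying hen, which places a heavy demand on its amino acid supply.

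Total counts ranged from 14793554 to 23261748 per library, and 3 counts corresponded to 0.128 to 0.202 CPM, the counts scaled to a common library size, a floor that covers counting error only. Levels are CPM scaled by TMM factors within each tissue. The 5 genes with the most reads held 30.3% to 43.6% of a liver library, against 3.92% to 9.37% of a fat or ovary library. Summed markers of the labelled tissue were high in each. The 7 hepatocyte markers summed to 264400 to 398300 CPM in liver, the 5 adipocyte markers to 12370 to 31210 CPM in fat and the 8 ovarian markers to 1186 to 2461 CPM in ovary. Of the ovarian markers, INHA was low in ovary itself, at 0.0 to 3.855 CPM. Summed hepatocyte markers were 24.9 to 1165 CPM in fat and 46.1 to 799 CPM in ovary, and adipocyte and ovarian markers summed to at most 34.4 and 4.001 CPM in liver. Adipocyte markers summed to 213.7 to 358.8 CPM in ovary, and ovarian markers to 5.11 to 8.618 CPM in fat. ADIPOQ had 13.9 to 243.8 CPM in ovary, which overlapped its 151.3 to 389.5 CPM in fat. Nothing in the labels separates fewer cells of a type from less RNA per cell, and in bulk tissue these cannot be told apart.

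CHAC1 (ENSGALG00000027874) was the member chosen on its liver values. These are therefore given as a description, and nothing is read from the feeding test of CHAC1 in liver. In the ad libitum livers it had 9.40 CPM in G1721, 249 CPM in G1723 and 5.13 CPM in G1725, against 4.90, 8.66 and 8.84 CPM in the restricted livers G1724, G6709 and G6710. A single liver, G1723, was high, and the other ad libitum livers lay within or beside the range of the restricted ones, so that the groups overlapped. The underlying counts were 4842 reads in G1723 and 91 to 208 reads in the other livers. The means were 87.7 ± 139 CPM in the ad libitum group and 7.46 ± 2.23 CPM in the restricted group (SD, n = 3 each), and the log2 fold change was 3.55 with a standard error of 1.31. Without G1723 it was -0.02, and leaving out any other hen gave values up to 4.12. The liver value of CHAC1 thus rested on 1 hen.

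**Figure D1:**
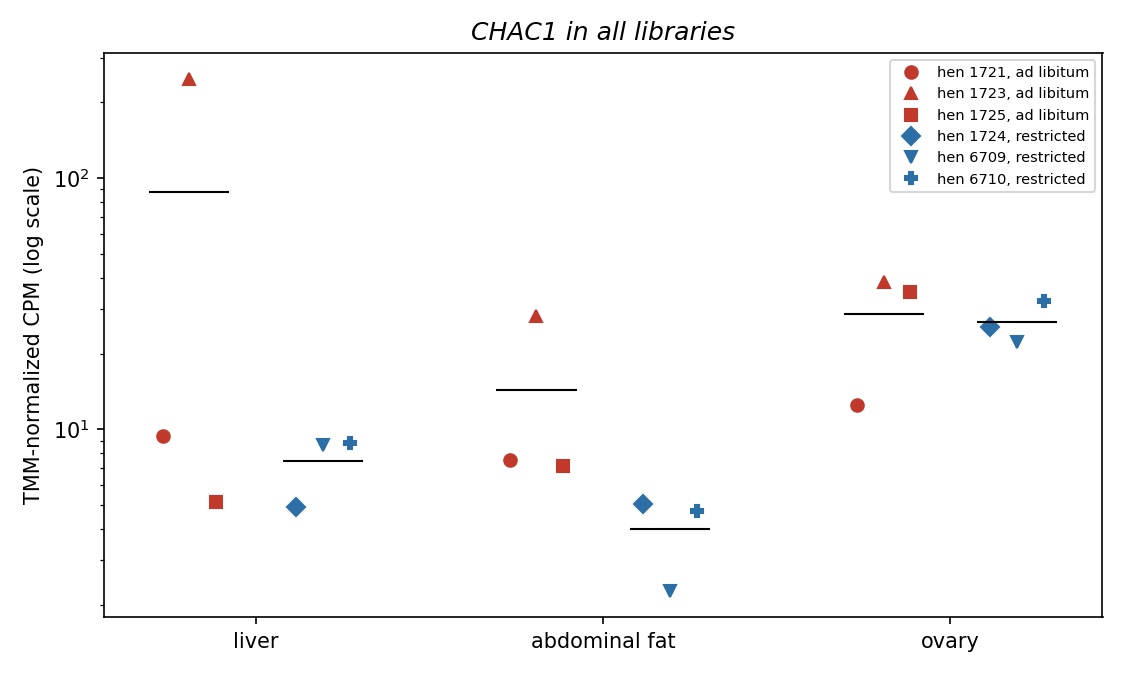
CHAC1 expression in each of the 18 libraries, as TMM-normalized CPM on a log axis, by tissue, with the ad libitum hens in red to the left of the restricted hens in blue; the marker shape gives the hen and the bar the mean of 3 hens. The hen of G1723 has the highest value in all 3 tissues, 249 CPM in liver, 28.3 CPM in fat and 38.5 CPM in ovary, where M1725 is close at 35.1 CPM. Without the hen of G1723 the liver groups lie in the same range.

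In G1723, CHAC1 was 26.4 times the next highest liver, the largest such ratio of the genes tested in liver. Only 31 of 10339 genes (0.3%) were at least 2 times the next liver in that liver, and for the other livers the share was 0.135% to 0.629%. Behind CHAC1 came RGS2, a regulator of G protein signalling, with 139 CPM and a ratio of 8.96. The metallothionein genes MT3 and MT4 followed with ratios of 5.06 and 4.45, together with the clock-linked repressor BHLHE40 at 4.89 and the stress gene GADD45B at 4.48. These 5 genes were picked after their values were seen, and none of them is a member.

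The genes with a symbol whose liver pattern was most like that of CHAC1, by Pearson correlation of log2(CPM + 1) over the 6 livers, were FMR1 (r = 0.993), ANGPT1 (0.988), KCNK5 (0.985), FOCAD (0.977), RMDN2 (0.976), JAM2 (0.970), MCL1 (0.964), TNIP2 (0.964), RECK (0.963) and ZDHHC17 (0.960). G1723 was the highest liver for each of these 10 genes, which follows from how they were picked, since CHAC1 was high in that liver alone. Without that liver r was between -0.009 for MCL1, an anti-apoptotic protein, and 0.905 for FMR1. FMR1, the RNA-binding protein lost in fragile X syndrome, had 37.4 CPM in G1723 and 30.5 to 32.1 CPM in the other livers. TNIP2, a regulator of NF-kappaB signalling, had 14.3 CPM in G1723 and 2.70 to 3.98 CPM in the others. Of 10338 genes, 16 had an r over 0.95 with CHAC1. For the other members tested in liver, r with CHAC1 was 0.488 for ATF3, 0.423 for PSAT1, -0.190 for PHGDH, -0.328 for ASNS and -0.422 for ATF4. As r over the 6 livers rests largely on G1723, nothing more is read from these values.

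ATF4 (ENSGALG00000012135), the factor at the head of the response, had 333, 236 and 238 CPM in the ad libitum livers G1721, G1723 and G1725, against 518, 234 and 446 CPM in the restricted livers G1724, G6709 and G6710. ASNS (ENSGALG00000009748), which makes asparagine and is a classic ATF4 target, had 33.2, 22.9 and 17.2 CPM in the ad libitum livers, against 70.3, 25.2 and 59.2 CPM in the restricted livers. Both genes were highest in the restricted livers G1724 and G6710, while G6709, also restricted, lay among the ad libitum livers, so the groups overlapped. The log2 fold changes were -0.57 (SE 0.31) for ATF4 and -1.08 (SE 0.39) for ASNS, opposite in sign to that of CHAC1. Without G6709 they were -0.84 and -1.40, and without G1724, at the other end of the range, -0.34 and -0.78.

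The same 2 livers were the highest for 4 of the 5 aminoacyl-tRNA synthetases that could be named, the enzymes that charge tRNAs with amino acids. AARS had 117, 81.3 and 72.8 CPM in the ad libitum livers, against 169, 99.2 and 157 CPM in the restricted livers. GARS had 51.1, 45.7 and 42.9 CPM in the ad libitum livers, against 89.7, 44.3 and 85.3 CPM in the restricted livers. MARS and SARS were also highest in G1724 and G6710, with log2 fold changes of -0.62 (SE 0.29) and -0.66 (SE 0.31), and WARS did not, with its highest value in G1723. G1724 and G6710 were the 2 highest livers for 18.0% of all genes tested and for 4 of 5 synthetases. The 2 of 6 members tested with this order were ATF4 and ASNS. The pair of livers was picked from their values, so nothing is read from that count. The synthetases had a median log2 fold change of -0.65, against -0.004 over all genes. The duct epithelial markers KRT19, KRT7 and SOX9, 3 of the 5 on that list, were also highest in G1724 and G6710. SPP1 and EPCAM, the most abundant of the list at 44.6 to 64.5 CPM, did not have that order. The list summed to 78.4, 55.8 and 76.0 CPM in the ad libitum livers G1721, G1723 and G1725. In the restricted livers G1724, G6709 and G6710 it summed to 80.3, 61.0 and 82.0 CPM. In ovary the list summed to 547.4 to 985.8 CPM, so it is not particular to duct cells. The part of cells with these markers in the values of ATF4, ASNS and the synthetases was not tested.

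**Figure D2:**
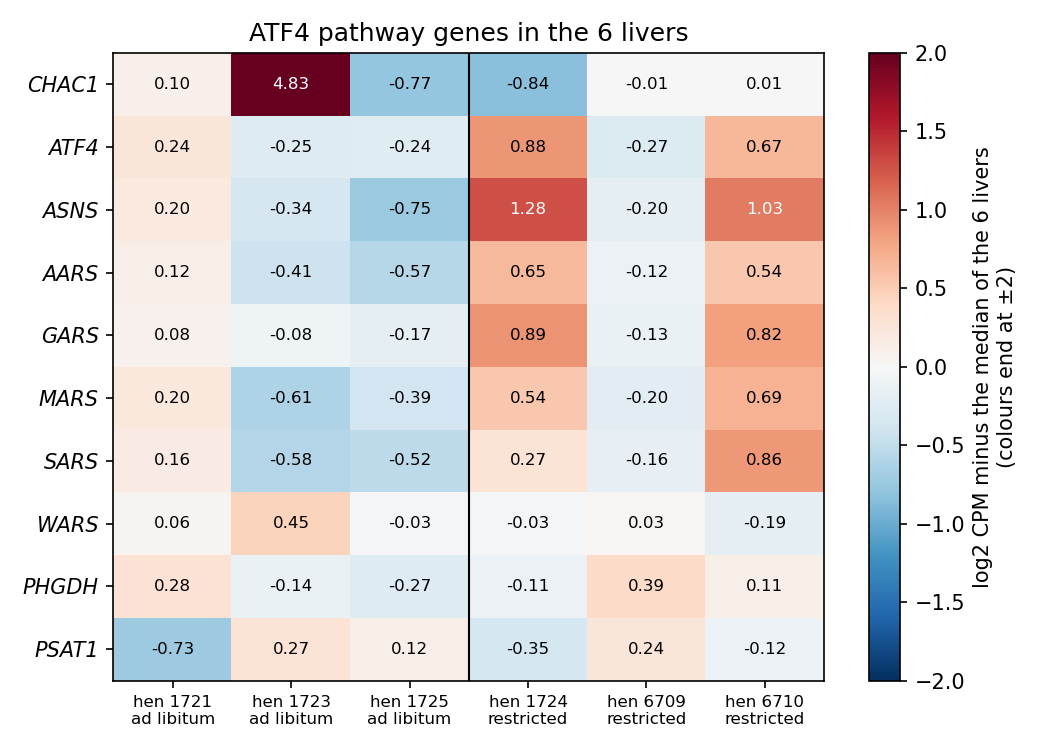
Expression of CHAC1, ATF4, ASNS, 5 aminoacyl-tRNA synthetases and the serine synthesis genes in each liver, as log2 CPM minus the median of the 6 livers, with the ad libitum hens left of the line and the restricted hens right of it. ATF4, ASNS, AARS, GARS, MARS and SARS are highest in G1724 and G6710, whereas CHAC1 is 4.83 above its median in G1723, beyond the end of the colour scale.

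The serine synthesis enzymes did not follow either pattern in liver. PHGDH (ENSGALG00000002988), which takes the entry step from glycolysis into serine, had 530.2, 397 and 362 CPM in the ad libitum livers, against 403, 569.8 and 471 CPM in the restricted livers. PSAT1 (ENSGALG00000015180), the aminotransferase of the next step, had 604, 1206 and 1086 CPM in the ad libitum livers, against 783, 1183 and 918 CPM in the restricted livers. The groups overlapped for both, and the log2 fold changes were -0.16 (SE 0.22) and 0.01 (SE 0.29). PSPH, which completes serine synthesis, had 1969 to 4700 CPM in the ad libitum livers and 4631 to 5197 CPM in the restricted livers, with a log2 fold change of -0.65 (SE 0.32).

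ATF3 (ENSGALG00000025887), a stress-induced repressor of the same family as ATF4, was low in liver, with 1.90, 4.98 and 3.10 CPM in the ad libitum hens, against 2.89, 1.35 and 5.02 CPM in the restricted hens. SESN2 (ENSGALG00000005648), a sestrin, one of a family that restrains mTORC1 in mammals, had 0.633, 0.514 and 1.97 CPM in the ad libitum livers, against 0.341, 1.09 and 0.953 CPM in the restricted livers. These values rest on 8 to 35 reads per library, and SESN2 was too low to pass the filter in liver. Both genes overlapped between the groups, and the log2 fold change of ATF3 was 0.10 (SE 0.51).

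None of the 6 members tested in liver passed an FDR of 0.1, where 1 of 10339 genes did (0.00967%). At an unadjusted p under 0.05 there were 2 of 6, against 13.7% of all genes, and groups that did not overlap were found for 0 of 6 members against 21.2% of all genes. Since this contrast chose the members, nothing is read from these counts. DESeq2, which called 241 genes in liver (2.33%), called no member and gave no adjusted p for CHAC1.

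Other arms of the stress response are described for liver in the same way. All 7 named genes of the unfolded protein response of the endoplasmic reticulum had a positive log2 fold change, with a median of 0.54, and 4 of them had an unadjusted p under 0.05, against 6.24% of all genes in that direction, none passing the FDR. Which genes could be named depended in part on the feeding contrasts, so nothing is read from this count. SEL1L, a scaffold for degrading misfolded proteins, had 66.6, 110 and 63.5 CPM in the ad libitum livers, against 32.1, 60.5 and 35.0 CPM in the restricted livers, and the groups did not overlap. The chaperone HSP90B1 had a log2 fold change of 0.61, CRELD2 of 0.60 and ATF6 (ATF6B in RefSeq) of 0.54. Among kinases and partners of eIF2alpha, EIF2B1, a subunit of its exchange factor, had 10.6 to 12.4 CPM in the ad libitum livers and 14.4 to 19.3 CPM in the restricted livers. The amino acid transporter SLC38A2 was highest in G1723, with 503 CPM, against 81.8 to 284 CPM in the other livers. SLC7A5, another amino acid transporter, had a log2 fold change of 0.76.

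Further target genes of the response in liver, 8 in all, had log2 fold changes between -0.41 for the transcription factor CEBPB and 0.57 for the angiogenic factor VEGFA, with 0.49 for the lipoprotein receptor VLDLR and 0.44 for CREBRF. Genes of serine, glycine and folate-linked metabolism had a median of 0.10, with 0.56 for CBS, -0.46 for GOT1 and 0.33 for MTHFD1L. For glutathione and oxidative stress genes, 8 of which were tested, the median was 0.08, with 0.61 for GGT5, -0.51 for NQO1, -0.40 for GPX1 and 0.38 for TXNRD1. Of 4 immediate early genes, which respond within minutes to stimuli that include tissue handling, EGR1 had 8.64, 45.9 and 15.7 CPM in the ad libitum livers, against 11.7, 13.7 and 17.5 CPM in the restricted livers. It was thus highest in G1723, as was NR4A3 with a log2 fold change of 0.55, while JUN and MYC had -0.50 and -0.29.

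In abdominal fat 4 of 7 members had an unadjusted p under 0.05, against 5.19% of all genes, and none passed the FDR. Which members could be named depended in part on the feeding contrasts, so nothing is read from this count. CHAC1 and ATF3 were higher and PHGDH and PSAT1 lower on average in the ad libitum group. CHAC1 had 7.54, 28.3 and 7.12 CPM in the ad libitum fat samples F1721, F1723 and F1725, against 5.06, 2.26 and 4.70 CPM in the restricted fat samples F1724, F6709 and F6710. Every ad libitum sample lay above every restricted sample, where groups did not overlap for 8.77% of all genes tested in fat. F1723 was again the highest. The log2 fold change was 1.84 (SE 0.63, FDR = 0.894, edgeR quasi-likelihood test), and without F1723 it was 0.87. The hen of F1723 was thus highest of the 6 in all 3 tissues for CHAC1, of which liver was the tissue that chose the gene. She was highest in all 3 for 73 of 9882 genes (0.739%), in fat for 18.5% of genes tested and in ovary for 17.6%. The share for all 3 tissues counts liver, where the choice of CHAC1 had set her rank, so nothing is read from it. In ovary the lead was small, with 38.5 CPM in M1723 against 35.1 CPM in M1725.

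ATF3 had 27.9, 74.0 and 79.4 CPM in the ad libitum fat, against 10.9, 40.6 and 11.4 CPM in the restricted fat, and the groups overlapped through F1721 and F6709. Its log2 fold change was 1.52 (SE 0.61, FDR = 0.907, edgeR). SESN2 had 12.6, 8.63 and 8.75 CPM in the ad libitum fat, against 3.78, 8.36 and 2.96 CPM in the restricted fat, without overlap but with F6709 just under the ad libitum samples. Its log2 fold change was 0.98 (SE 0.43, FDR = 0.907, edgeR).

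The serine synthesis genes had negative fold changes in fat. PHGDH had 2.11, 2.58 and 2.88 CPM in the ad libitum fat, against 14.4, 3.21 and 10.8 CPM in the restricted fat. PSAT1 had 4.44, 1.98 and 3.80 CPM in the ad libitum fat, against 12.7, 3.63 and 13.7 CPM in the restricted fat. For both, F1724 and F6710 stood well above the rest and F6709, also restricted, lay close to the ad libitum samples. The log2 fold changes were -1.90 for PHGDH (SE 0.54, FDR = 0.890, edgeR) and -1.54 for PSAT1 (SE 0.56, FDR = 0.907, edgeR). DESeq2 called PHGDH, with an adjusted p of 0.0995.

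ASNS and ATF4 completed the members in fat. ASNS had 44.8, 19.8 and 29.7 CPM in the ad libitum fat, against 42.9, 46.7 and 49.3 CPM in the restricted fat, with a log2 fold change of -0.56 (SE 0.29, FDR = 0.907, edgeR). ATF4 had 338, 434 and 457 CPM in the ad libitum fat, against 394, 321 and 488 CPM in the restricted fat, with a log2 fold change of 0.03 (SE 0.24). Both overlapped between the groups. In fat, 0 of 7 members passed the FDR by edgeR, against 0.00839% of the 11914 genes tested, and 1 did by DESeq2, against 0.658%. The 4 of 7 members with an unadjusted p under 0.05 stood against 5.19% of all genes. CHAC1 and ATF3 had positive fold changes, against 2.0% of genes with such a p in that direction, and PHGDH and PSAT1 negative ones, against 3.19%. Groups that did not overlap were found for 3 of 7 members, against 8.77% of all genes. Which members could be named depended in part on the feeding contrasts, so nothing is read from these counts.

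**Figure D3:**
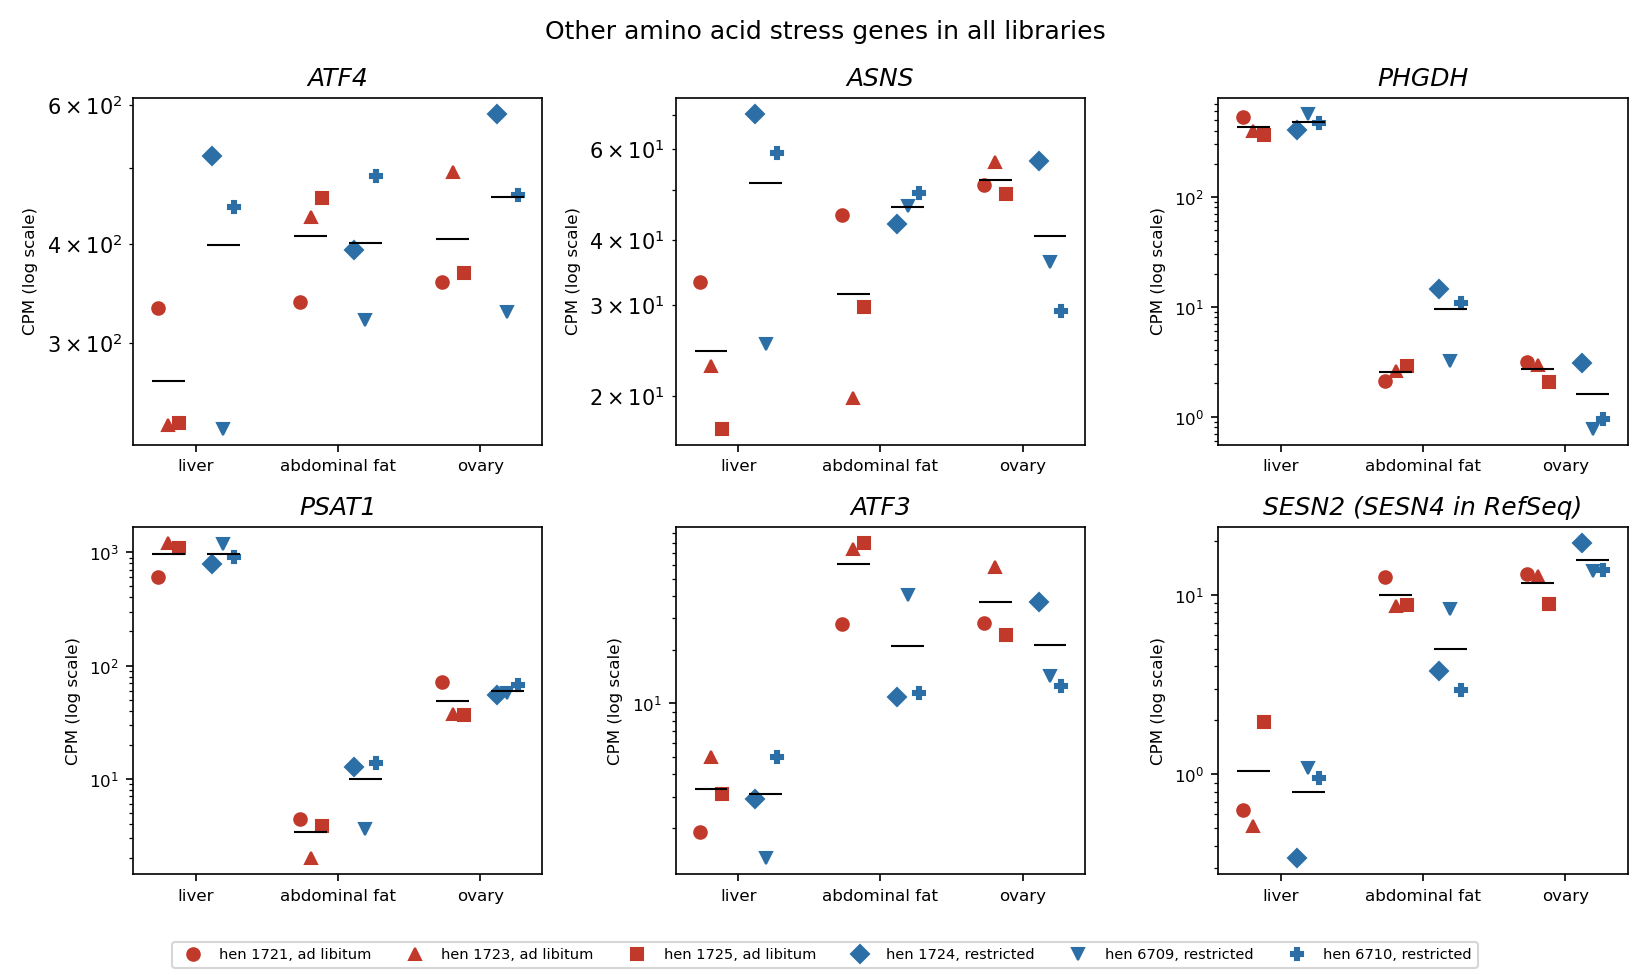
Expression of ATF4, ASNS, PHGDH, PSAT1, ATF3 and SESN2 in the 18 libraries, as TMM-normalized CPM on log axes, with the ad libitum hens in red left of the restricted hens in blue, marker shapes for hens and bars for the means of 3 hens. PHGDH and PSAT1 are at 362 CPM or more in every liver and at most 14.4 and 13.7 CPM in fat, where the restricted samples F1724 and F6710 are the highest. Among the livers alone, ATF4 and ASNS are highest in those of the same hens.

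Markers of adipocytes and of other cells also varied among the fat samples. F1724 and F6710 were also highest for 4 of 5 adipocyte markers, whose sum was 16225, 14636 and 14770 CPM in the ad libitum fat, against 25466, 12371 and 31210 CPM in the restricted fat. They were the 2 highest for 14.3% of all genes tested in fat. They were also the 2 highest for 6 of 7 hepatocyte markers, whose sum was 24.9 to 436 CPM in the ad libitum fat and 350.1 to 1165 CPM in the restricted fat. In F1724 and F6710, PHGDH was 3.58% and 2.28% of the level in the same hen's liver, and PSAT1 was 1.62% and 1.49%. The 7 hepatocyte markers ranged from 0.146% (ALB) to 0.402% (VTG2) in F1724 and from 0.290% (ALB) to 0.937% (FGA) in F6710. The list of duct epithelial markers, which includes keratins, summed to 433 CPM in F1721 and 776 CPM in F6709, and to 17.1 to 28.9 CPM in the other fat samples. That list summed to 547.4 to 985.8 CPM in ovary and to less in liver, so it is not particular to duct cells. Macrophage markers were 460.1 to 869 CPM in the ad libitum fat and 321 to 652 CPM in the restricted fat. The part of these cells in the values of the members was not tested.

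The pathway genes around the members had no call by edgeR in fat. Their naming depended in part on the feeding contrasts, so nothing is read from how many had a low p. Of 8 genes of serine, glycine and folate-linked metabolism, 3 had an unadjusted p under 0.05, all with negative fold changes, against 3.19% of all genes in that direction, and the list median was -0.70 against 0.01 over all genes. GPT2, which interconverts alanine and glutamate, had 4.04, 1.92 and 2.23 CPM in the ad libitum fat, against 9.44, 16.1 and 12.6 CPM in the restricted fat. Its log2 fold change was -2.21 (SE 0.39, FDR = 0.890, edgeR), and DESeq2 called it with an adjusted p of 0.000172. CBS had -1.13, GOT1 -0.99 and PSPH -0.84. All 6 immediate early genes had positive fold changes in fat, with a median of 0.86, and 3 had an unadjusted p under 0.05, against 2.0% of all genes in that direction. NR4A3 had 34.6, 134 and 99.2 CPM in the ad libitum fat, against 40.9, 32.5 and 24.2 CPM in the restricted fat. FOSL2 followed with a log2 fold change of 1.29 (SE 0.42), KLF4 with 0.99 and EGR1 with 0.72. F1723, highest for CHAC1, was also the highest fat sample for 4 of these 6 genes, against 18.5% of all genes, and whether they moved for a common reason was not tested.

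The remaining lists held smaller values in fat, and for the same reason nothing is read from their counts. The 7 genes of the unfolded protein response had a median log2 fold change of -0.31, with -0.52 for HSPA5 and HSP90B1, -0.51 for CRELD2 and -0.31 for HYOU1, and 2 had an unadjusted p under 0.05, against 3.19% of all genes in that direction. The 5 synthetases lay between -0.20 for WARS and 0.46 for GARS, with none under that p. TXNRD1, which keeps thioredoxin reduced, had 1.03 (SE 0.34), NQO1 0.65, GSTA3 0.50 and GGT1 (GGT2 in RefSeq) -0.84. TRIB2 had 0.67, VLDLR -0.57, CEBPB 0.42 and CREBRF 0.27. The transporters SLC38A2 and SLC7A5 had 0.33 and -0.06, and the 3 genes around eIF2alpha lay between -0.26 for EIF2B1 and 0.05 for EIF2AK1.

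**Figure D4:**
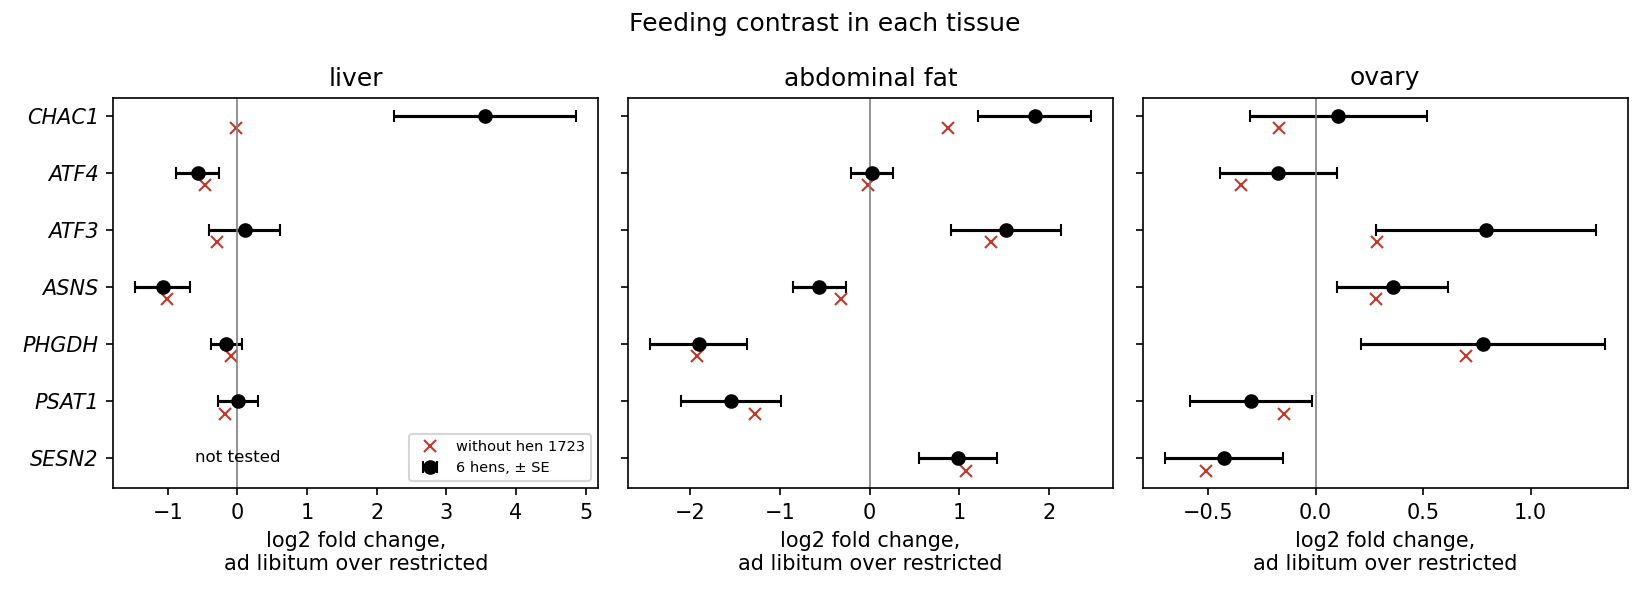
Log2 fold change of each member, ad libitum over restricted, in liver, abdominal fat and ovary, with standard errors from the edgeR fit (black points and bars, 6 hens) and the value without the hen of G1723 (red crosses). The horizontal scales differ between panels. CHAC1 in liver is at 3.55 with all hens and at -0.02 without that hen, and in fat at 1.84 and 0.87.

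In ovary no member had an unadjusted p under 0.05, against 4.85% of 12871 genes, and 0 of 7 passed the FDR by edgeR (0.0% of all genes) or by DESeq2 (0.374%). CHAC1 had 12.5, 38.5 and 35.1 CPM in the ad libitum ovaries M1721, M1723 and M1725, against 25.4, 22.2 and 32.4 CPM in the restricted ovaries M1724, M6709 and M6710. The groups overlapped, with ad libitum hens at both ends of the range, and the log2 fold change was 0.11 (SE 0.41, FDR = 0.966, edgeR). SESN2 had 13.2, 12.7 and 8.95 CPM in the ad libitum ovaries, against 19.4, 13.6 and 13.9 CPM in the restricted ovaries. It was the only member of 7 without overlap in ovary, against 9.52% of all genes, and its log2 fold change was -0.43 (SE 0.27, FDR = 0.878, edgeR).

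ATF3 had 28.4, 58.1 and 24.3 CPM in the ad libitum ovaries, against 37.2, 14.2 and 12.5 CPM in the restricted ovaries, with a log2 fold change of 0.79 (SE 0.51). It was highest in M1723, as was CHAC1. M1723 also held the highest sum of red cell markers, 8577 CPM, against 116 to 1031 CPM in the other ovaries. PHGDH had 3.16, 2.94 and 2.05 CPM in the ad libitum ovaries, against 3.07, 0.770 and 0.953 CPM in the restricted ovaries, with a log2 fold change of 0.78 (SE 0.57). ASNS, ATF4 and PSAT1 had log2 fold changes of 0.36, -0.17 and -0.30, and their groups overlapped. ASNS ranged over 49.2 to 56.7 CPM in the ad libitum ovaries and 29.3 to 57.0 CPM in the restricted ovaries. For PSAT1 the ranges were 36.9 to 71.4 CPM in the ad libitum group and 54.4 to 67.1 CPM in the restricted group, and for ATF4 they were 358 to 493 CPM in the ad libitum group and 329 to 585 CPM in the restricted group.

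Among the pathway genes in ovary, edgeR called none. Their naming depended in part on the feeding contrasts, so nothing is read from how many had a low p. GSTA3, a glutathione transferase, had 62.5, 60.4 and 96.4 CPM in the ad libitum ovaries, against 24.2, 34.6 and 18.5 CPM in the restricted ovaries. Its log2 fold change was 1.50 (SE 0.30, FDR = 0.878, edgeR), and DESeq2 called it with an adjusted p of 0.00967. The study's lists give 2 identifiers as GSTA3, and the other, GSTA4 in RefSeq, is not described here. HMOX1, which degrades heme, had 0.73, TXNRD1 0.59 and GPX1 0.58, and 3 of the 9 glutathione and oxidative stress genes had an unadjusted p under 0.05, all with positive fold changes, against 3.02% of all genes in that direction. PSPH had 19.1, 10.2 and 11.3 CPM in the ad libitum ovaries, against 8.61, 5.15 and 5.77 CPM in the restricted ovaries, with a log2 fold change of 1.06 (SE 0.36, FDR = 0.878, edgeR). MTHFD2, a mitochondrial folate enzyme, had -0.69, ALDH1L2 -0.60 and CBS -0.21. Macrophage markers summed to 340.2 to 667 CPM in the ad libitum ovaries and 105 to 252 CPM in the restricted ovaries, and hepatocyte markers to 60.5 to 799 CPM in the ad libitum ovaries and 46.1 to 152 CPM in the restricted ovaries. Their part in these values was not tested.

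The other lists in ovary were led by STC2, a secreted glycoprotein, with 1.40 (SE 0.83), then CEBPB with 1.15, VEGFA with 0.81 and CREBRF with 0.69. All 6 immediate early genes had positive fold changes, with a median of 0.40, led by NR4A3 with 1.13 (SE 0.84), KLF4 with 0.42, FOSL2 with 0.41 and EGR1 with 0.39. The synthetases lay between -0.29 for SARS and 0.24 for WARS, and the unfolded protein response genes between -0.13 for HSPA5 and 0.26 for HSP90B1. SLC7A5 had 0.56 and SLC38A2 -0.01, and the genes around eIF2alpha lay between -0.17 for EIF2B1 and -0.01 for EIF2AK1.

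Between tissues, PHGDH and PSAT1 were higher and ATF3 and SESN2 lower in liver than in fat and ovary. CHAC1 had a positive log2 difference for liver minus fat under both scalings, but it was chosen on its liver values and G1723 raised the liver mean. The place of ASNS and ATF4, and that of CHAC1 against ovary, depended on scaling. Comparing tissues depends on how libraries are scaled, because a few yolk and plasma protein genes fill the liver libraries: with TMM factors the median log2 difference of all genes was -0.10 for liver minus fat and -0.14 for liver minus ovary, and with library size alone it was -1.46 and -2.02. By edgeR with TMM factors, 7 of 7 members passed the FDR between liver and fat, against 76.8% of all genes. Of these, 5 were higher in liver, against 35.4% of all genes, and 2 lower, against 41.4%. Between liver and ovary 6 of 7 passed, against 80.8%, with 4 higher, against 36.6%, and 2 lower, against 44.2%. With library size alone 5 of 7 passed against fat, where 90.8% of all genes did, and 4 of 7 against ovary, where 93.0% did. CHAC1, which was chosen on its liver values, is among those that passed against fat under both scalings.

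PHGDH and PSAT1 were liver genes in all 6 hens. PHGDH had 362 to 569.8 CPM in liver, with a median of 437 CPM, against 2.11 to 14.4 CPM in fat (median 3.04) and 0.770 to 3.16 CPM in ovary (median 2.50). The log2 difference was 7.87 (SE 0.49, FDR = 1.87e-08) for liver minus fat and 9.64 (SE 0.43, FDR = 3.82e-10) for liver minus ovary, by edgeR. PSAT1 had 604 to 1206 CPM in liver, with a median of 1002 CPM, against 1.98 to 13.7 CPM in fat (median 4.12) and 36.9 to 71.4 CPM in ovary (median 56.0). The log2 difference was 8.71 (SE 0.53, FDR = 1.44e-08) for liver minus fat and 6.05 (SE 0.28, FDR = 6.14e-10) for liver minus ovary, by edgeR. With library size alone all 4 differences stayed positive, at 4.14 to 7.78. The order of levels was liver, fat, ovary for PHGDH, with fat and ovary overlapping, and liver, ovary, fat for PSAT1, without overlap.

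ATF3 and SESN2 were lower in liver. ATF3 had 1.35 to 5.02 CPM in liver (median 3.00), against 10.9 to 79.4 CPM in fat (median 34.2) and 12.5 to 58.1 CPM in ovary (median 26.3), and fat and ovary overlapped. The log2 difference was -2.11 (SE 0.49, FDR = 0.00164) for liver minus fat and -1.25 (SE 0.40, FDR = 0.0120) for liver minus ovary, by edgeR. SESN2 had 0.341 to 1.97 CPM in liver (median 0.793), against 2.96 to 12.6 CPM in fat (median 8.50) and 8.95 to 19.4 CPM in ovary (median 13.4), with fat and ovary overlapping. The log2 difference was -1.61 (SE 0.41, FDR = 0.00332) for liver minus fat and -2.01 (SE 0.37, FDR = 0.000237) for liver minus ovary, by edgeR. Both differences were negative under both scalings for each gene. Every hen had less SESN2 in liver than in her fat and ovary, both in these CPM and with TMM factors fitted over all 18 libraries together. For ATF3 this held in 6 of 6 hens in CPM and in 5 of 6 with the common factors, where G6710 had 10.6, against 9.24 in F6710 and 7.60 in M6710. With the common factors the range of SESN2 in liver, 0.709 to 4.14, overlapped that in fat, 2.391 to 10.4.

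The direction of ASNS and ATF4 between tissues was not settled. With TMM factors ASNS was higher in liver by 1.26 (SE 0.27, FDR = 0.00111) against fat and 1.51 (SE 0.33, FDR = 0.000995) against ovary on the log2 scale, and ATF4 by 1.05 (SE 0.22, FDR = 0.000853) and 1.49 (SE 0.23, FDR = 5.08e-05), by edgeR. With library size alone the signs turned, to -0.09 and -0.36 for ASNS and to -0.29 and -0.38 for ATF4, and none of these passed the FDR. In CPM, ASNS ranged over 17.2 to 70.3 in liver, 19.8 to 49.3 in fat and 29.3 to 57.0 in ovary, and ATF4 over 234 to 518 in liver, 321 to 488 in fat and 329 to 585 in ovary. In these CPM, whose factors were fitted within each tissue, all 3 tissues overlapped for each gene. With TMM factors fitted over all 18 libraries together, ATF4 was 494 to 1078 in liver, against 259 to 395 in fat and 193 to 338 in ovary, without overlap between liver and the other tissues. On that scale ASNS was 36.2 to 146.5 in liver, against 16.0 to 39.9 in fat and 17.7 to 33.0 in ovary, so that liver lay above every ovary and overlapped fat.

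CHAC1 levels had a median of 8.75 CPM in liver, 6.09 CPM in fat and 28.9 CPM in ovary, and in these CPM liver was higher than fat in 4 of 6 hens and higher than ovary in 1 of 6, the hen of G1723. With TMM factors fitted over all 18 libraries together, liver was higher than fat in 6 of 6 hens and higher than ovary in 3 of 6. On that scale the medians were 18.46 in liver, 5.037 in fat and 17.15 in ovary, and all 3 tissues overlapped. CHAC1 was chosen on its liver values, so the differences and FDRs that follow are a description and nothing is read from them. The log2 difference for liver minus fat was 3.17 (SE 0.88, FDR = 0.00550, edgeR) with all hens, 1.89 (FDR = 0.000409) without the hen of G1723 and 1.81 (FDR = 0.0539) with library size alone. With the hen as a block, which pairs the tissues of each hen, it was 2.31 (FDR = 0.00168, edgeR). For liver minus ovary it was 1.80 (SE 0.98, FDR = 0.1096, edgeR), 0.10 without that hen, 0.71 (FDR = 0.325, edgeR) with the hen as a block and -0.08 with library size alone. DESeq2 gave no adjusted p for CHAC1 in either comparison, and library size alone was not fitted without that hen.

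**Figure D5:**
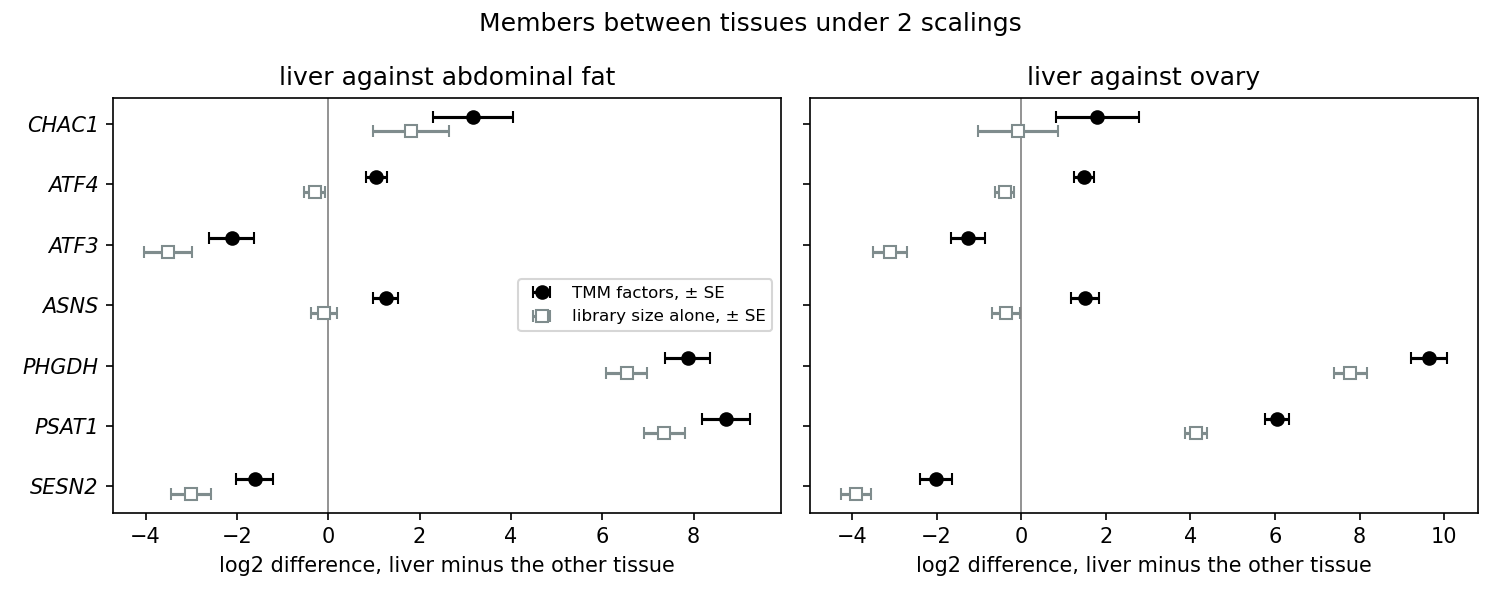
Log2 difference of each member between liver and abdominal fat (left) and between liver and ovary (right), with standard errors, under TMM factors (black circles) and library size alone (open grey squares). PHGDH and PSAT1 are above 0 and ATF3 and SESN2 below 0 under both scalings, while ASNS and ATF4 cross 0 when library size alone is used, as does CHAC1 against ovary.

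Pathway genes around the members separated the tissues in part. In serine, glycine and folate-linked metabolism, PSPH (10.16 and 10.59), GPT2 (7.16 and 5.83), CBS (6.48 and 3.59) and CTH (3.62 and 3.67), an enzyme of cysteine synthesis, were higher in liver than in fat and ovary by these log2 differences, in 6 of 6 hens and under both scalings. ALDH1L2 was lower, by -1.94 and -4.36. MTHFD2 was lower than in ovary, by -2.85, and its difference from fat, 0.22, did not pass. MTHFD1L and GOT1 were higher with TMM factors in both comparisons, but with library size alone MTHFD1L turned negative in both and GOT1 turned negative against ovary. All 6 immediate early genes, FOSL2, JUN, EGR1, MYC, KLF4 and NR4A3, were lower in liver under both scalings, by -5.33 to -1.75 against fat and -3.38 to -0.89 against ovary, which is the direction of ATF3.

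Of the glutathione and oxidative stress genes, HMOX1 (4.27 and 4.18), NQO1 (3.396 and 3.54) and GSTA3 (2.69 and 2.99) were higher in liver than in fat and ovary under both scalings, and GGT1 (-3.19 and -3.79) and GGT5 (-2.31 and -0.70) were lower. In the unfolded protein response, CRELD2 (2.91 and 2.94) and HSP90B1 (2.36 and 2.65) were higher in liver under both scalings and ATF6 (-0.84 and -0.46) was lower. HSPA5, HYOU1, SEL1L and ERN1 passed with TMM factors as higher in liver, yet with library size alone HSPA5, HYOU1, SEL1L and ERN1 turned negative against ovary, and ERN1 also against fat. STC2 (3.74 and 3.00) was higher and VLDLR (-3.10 and -5.49) and TRIB2 (-1.62 and -0.66) were lower in liver under both scalings. CEBPB was higher by 1.57 and 3.16. With library size alone it was 1.31 against ovary (FDR = 0.0037, edgeR) but 0.21 against fat (FDR = 0.309, edgeR), which did not pass. The synthetases AARS, GARS and SARS passed as higher in liver in both comparisons with TMM factors, and each turned negative with library size alone. WARS passed against fat alone (0.38) and MARS (0.65) and SLC38A2 (1.48) against ovary alone, and these too turned negative.

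The remaining genes of the lists that passed with TMM factors had smaller differences. EIF2AK2, the double-stranded RNA sensor among the eIF2alpha kinases, was higher in liver by 0.86 and 0.47 against fat and ovary, EIF2B1 by 0.72 and 0.47, CREBRF by 0.54 and 0.72, PPP1R15B by 0.45 against fat, GCLC by 0.75 against fat and GSS by 0.34 against ovary. Each of these turned negative with library size alone. VEGFA was higher by 0.41 against fat, where the sign turned, and by 3.29 against ovary, where it did not. KLHL24 (-0.34), GPX1 (-1.07) and TXNRD1 (-0.86) were lower in liver than in fat under both scalings.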

How the data were processed

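The deposited file holds raw counts, which the authors made by counting reads on Ensembl genes in 18 libraries of liver, abdominal fat and ovary from 6 hens. By the study's methods and the submitters' processing notes, reads were filtered, mapped to Gallus_gallus-5.0 with TopHat2 version 2.1.1 and Bowtie2 version 2.0.6, and counted in R. No strand or multiple-mapping mode is given in the sources used here, so reads shared by paralogs, such as those of the sestrins, could have been split or lost. All rows named a gene.

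A gene entered a fit if all libraries of 1 or more groups were above 1 CPM. Fits used edgeR 4.0.16 under R 4.3.3 (TMM, quasi-likelihood test, Benjamini-Hochberg FDR under 0.1 over all genes tested). Feeding was tested within each tissue, and liver was tested against fat and against ovary over 12 libraries with feeding as a covariate. Standard errors were derived from the log2 fold change and the F statistic and restate the test. DESeq2 version 1.42.0, RLE factors, library size alone, no filter, a likelihood ratio test and leaving out each hen were alternatives. The tests were checked on simulated data, where DESeq2 and the likelihood ratio test gave a larger share of false calls than the quasi-likelihood test in every comparison. The share of the quasi-likelihood test was itself above the FDR threshold for feeding in each tissue and for liver against ovary. It was below the threshold for liver against fat. The simulated counts were drawn a single time for each comparison and gave no hen an effect of her own. They therefore do not cover a case like G1723. With 3 hens against 3, an exact permutation test cannot go below 0.1. Tissues were paired by hen number, since the same hens gave all 3. The deviations of a hen's liver from the group means correlated with those of her fat at -0.033 to 0.186 and with those of her ovary at -0.124 to 0.14, over 13426 genes.

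The members and gene lists were chosen with earlier results of these data known. The text names all members found, the genes of each list that passed the test in a contrast, otherwise up to 4 with the largest change, and the 10 genes with a symbol most correlated with CHAC1 in liver. Symbols came from the study's supplementary lists and were compared with RefSeq by Entrez number. Where a symbol had several identifiers, the one that RefSeq gives the same symbol was kept. Gene positions and sequences were not used here, since no annotation of the build was at hand. Figures were drawn with Python 3.11.15, pandas 2.3.3 and matplotlib 3.10.9.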

Additional observations from a re-analysis of the deposited data

Results flagged for a closer look

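The feeding contrast of SESN2 ran in opposite directions in fat and ovary, where the groups did not overlap in either tissue. Groups did not overlap for 8.77% of all genes in fat and 9.52% in ovary. The gaps were small, with 8.36 CPM in F6709 against 8.63 CPM in F1723, and 13.2 CPM in M1721 against 13.6 CPM in M6709. In the filtered fits the log2 fold change of SESN2 was 0.98 in fat and -0.43 in ovary. Without a filter on low counts it was 1.02 in fat and -0.43 in ovary. A test of the difference, as an interaction of tissue and feeding over the 12 fat and ovary libraries, was added after the values were seen. SESN2 was picked for this difference, so nothing is read from its unadjusted p. The test gave 1.43 (SE 0.53, unadjusted p = 0.0197, FDR = 0.982, edgeR), and 1.55 (FDR = 0.907) with the hen as a block, and it called 0 of 13233 genes. Among the other members, the interaction was largest for PHGDH, at -2.67 (SE 0.86, FDR = 0.982, edgeR).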

How the results depend on the processing

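The count of members past the FDR for feeding stayed at 0 in each tissue under every alternative, except that DESeq2 called 1 in fat, PHGDH. Leaving out each hen moved the log2 fold change of CHAC1 in liver over -0.0238 to 4.12, turning its sign without G1723. Likewise it moved ATF3 in liver over -0.30 to 0.65, PSAT1 in liver over -0.17 to 0.25, ATF4 over -0.0861 to 0.20 in fat and -0.36 to 0.0502 in ovary, and CHAC1 in ovary over -0.17 to 0.46. With library size alone ATF3 and PSAT1 in liver became -0.0048 and -0.1102. The same scaling turned liver minus fat to -0.0929 for ASNS and -0.2936 for ATF4, and liver minus ovary to -0.0789 for CHAC1, -0.3572 for ASNS and -0.3839 for ATF4. Leaving out each hen kept 7 members past the FDR for liver against fat and gave 6 to 7 against ovary. With the hen as a block the counts were 7 and 6, as without it, and the block changed no call of a member. Over all genes, edgeR called 1 in liver, 1 in fat and 0 in ovary for feeding, DESeq2 called 241, 78 and 48, the likelihood ratio test called 146, 88 and 24, and edgeR without the hen of G6709 called 104 in liver and 6 in fat. At an unadjusted p under 0.05, edgeR called 1412, 618 and 624 genes. With 3 hens per group, values below about 1 CPM, as for SESN2 in liver, rest on few reads.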
